A study of Homo sapiens with 6 samples.

Results

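Expression of 10 forkhead genes was examined in definitive endoderm (DE) cells derived from the human embryonic stem cell line H1, with and without saracatinib (SAR), an inhibitor of SRC and related tyrosine kinases. The genes were FOXO1, FOXO3 and FOXO4, FOXP1 and FOXP4, FOXK1 and FOXK2, FOXN2 and FOXN3, and FOXJ2. They were chosen by name, with earlier results of these data known, and are 10 of the 45 FOX genes and of the 40396 genes listed in the deposited table. The control group comprised 3 libraries from H1 cultures that received DMSO, the solvent, and the SAR group comprised 3 libraries from cultures that received 0.5 µM SAR over the whole differentiation. Cells of both groups grew on Matrigel and were collected on day 3 of a differentiation with 50 ng/ml activin A, a ligand that activates SMAD signaling, and with 2.5 µM of the Wnt pathway agonist CHIR99021 during the first 24 h. A single cell line was used, and nothing in the labels says that the numbered libraries came from separate differentiations, so the p-values measure the spread between these libraries, which may be technical.

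Forkhead proteins are transcription factors that share a winged-helix DNA-binding domain. FOXO proteins are held in the cytoplasm after phosphorylation by AKT downstream of insulin and PI3K, and in the nucleus they activate genes of cell cycle arrest, metabolism and stress defence. FOXP proteins act mostly as repressors in pairs with each other, FOXK proteins bind the SIN3A corepressor and compete with FOXO at shared sites, FOXN2 and FOXN3 belong to a repressor group, and FOXJ2 is an activator present from early embryos on. In human embryonic stem cells FOXO1 is known for a part in pluripotency, and FOXP1 for a splice form of its own. RNA levels do not show where these proteins are in the cell or how they are phosphorylated.

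The libraries held between 18877964 and 24419937 reads in the control group and between 16681280 and 18389543 with SAR, as recovered from the steps in the deposited FPKM (fragments scaled by exon length and library size). These counts cover sampling error only. The endoderm label was checked against its markers, of which CER1, CXCR4 and EOMES were most abundant, with a mean FPKM of 4104, 118 and 83.1 in the control group and 1683, 83.2 and 32.1 with SAR. All 14 endoderm markers examined were tested, of which 6 rose and 7 fell with SAR, 4 and 5 of them past a log2 fold change of 1. Among those that rose were FOXA2, from a mean FPKM of 23.6 to 64.0, and SOX17, from 31.6 to 67.5, both named after their values were seen. CER1 made up most of the marker sum, and the summed FPKM of the 14 genes was 4023 to 5129 in control libraries and 2119 to 2177 with SAR. The pluripotency markers LIN28A, POU5F1 and TDGF1 were also abundant in both groups, and the summed FPKM of 11 such markers was 947 to 1062 in control libraries and 1154 to 1167 with SAR. The sums of 11 mesoderm markers were 21.0 to 23.6 and 28.8 to 32.4, those of 10 neural markers, led by OTX2, NES and ZIC2, 282 to 298 and 264 to 279, and those of 11 extraembryonic markers 22.7 to 31.6 and 21.6 to 36.4. The part of shifts in cell makeup in the values of the forkhead genes was not tested, and in bulk RNA fewer cells of a type and less RNA per cell cannot be told apart.

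The 10 forkhead genes moved in different directions with SAR. FOXP1, FOXP4 and FOXK1 rose, FOXJ2 fell, and the other 6 did not pass the test (limma on log2(FPKM + 0.1), Benjamini-Hochberg adjusted p under 0.05 over the 16371 genes whose mean reached 0.5 FPKM). Of all tested genes 23.7% were called higher and 9.55% lower, so 3 and 1 of 10 were shares near that background. FOXP1 alone also passed a log2 fold change of 1. The test and this size together were passed upward by 3.41% of tested genes and downward by 1.58%. The 3 SAR libraries lay wholly above the 3 control libraries for FOXO4, FOXP1, FOXP4 and FOXK1 and wholly below for FOXK2, FOXN3 and FOXJ2. That made 7 of 10 genes without overlap between the groups, against 50.7% of all tested genes. As deposited, the median log2 fold change over all tested genes was 0.12, and median-ratio rescaling of the libraries brought it to 0.00. For the 10 genes the median was -0.06 as deposited and -0.18 after rescaling. Rescaling also placed the SAR libraries wholly below the control libraries for FOXO1, FOXO3 and FOXN2, and made the groups overlap for FOXO4. The share of all tested genes without overlap was computed only as deposited. After rescaling 2 of the 10 genes (FOXP1 and FOXP4) were called higher, against 13.8% of all tested genes, and 4 (FOXO3, FOXK2, FOXN3 and FOXJ2) were called lower, against 15.5%. The test and a log2 fold change of 1 together were then passed by 0 of the 10 genes, against 2.46% of tested genes upward and 2.21% downward. A voom fit on the recovered reads called 3 of the 10 genes higher (FOXP1, FOXP4 and FOXK1) and 2 lower (FOXO3 and FOXJ2), against 27.5% and 11.1% of its tested genes, with 1 upregulated and 0 downregulated past a log2 fold change of 1, against 4.22% and 1.81%. All 10 genes passed the minimum of 0.5 FPKM, FOXP1 only through its values with SAR.

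**Figure D1:**
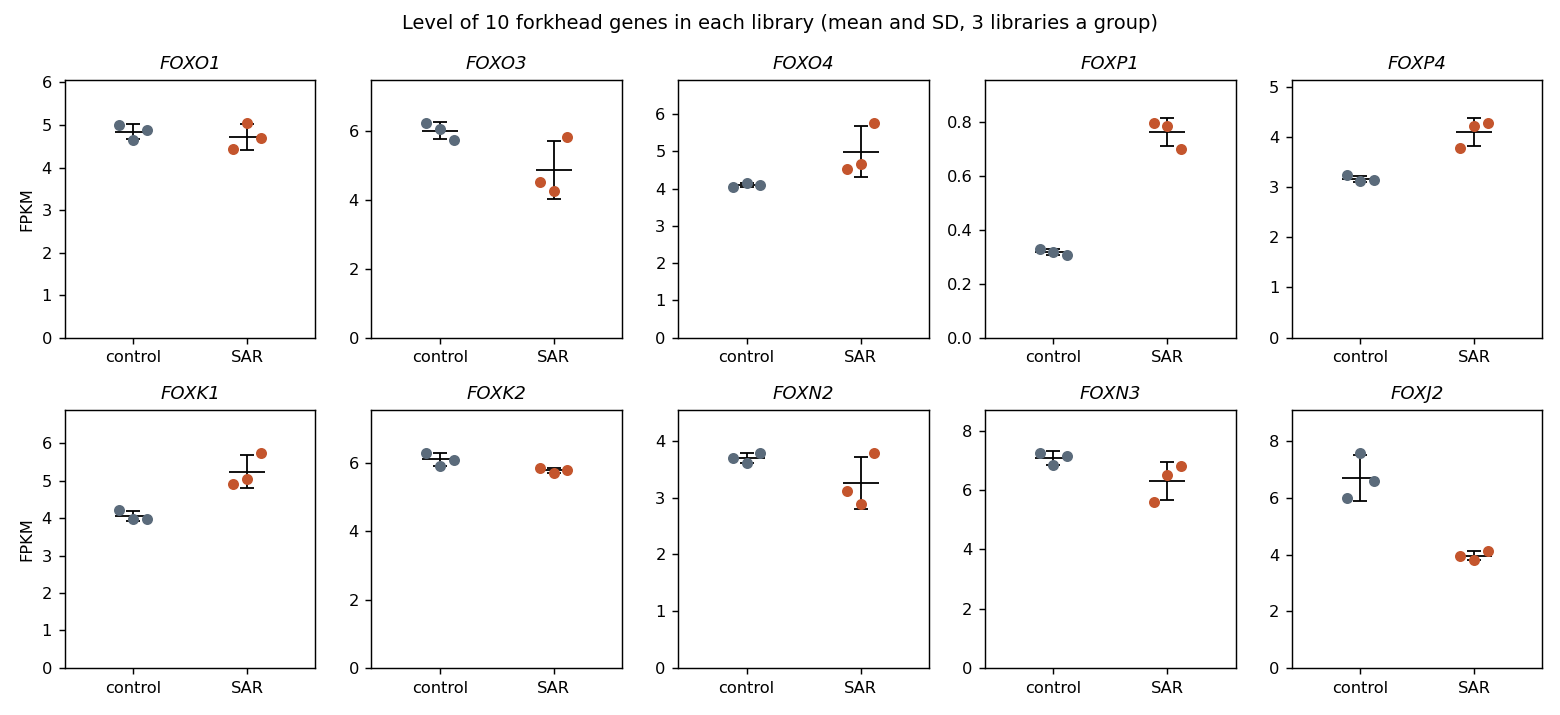
FPKM of each of the 10 forkhead genes (y axes, linear and starting at 0) in the 3 control and 3 SAR libraries (points), with the mean and SD of each group (lines). The SAR points lie wholly above the control points for FOXO4, FOXP1, FOXP4 and FOXK1, wholly below them for FOXK2, FOXN3 and FOXJ2, and overlap them for FOXO1, FOXO3 and FOXN2.

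**Figure D2:**
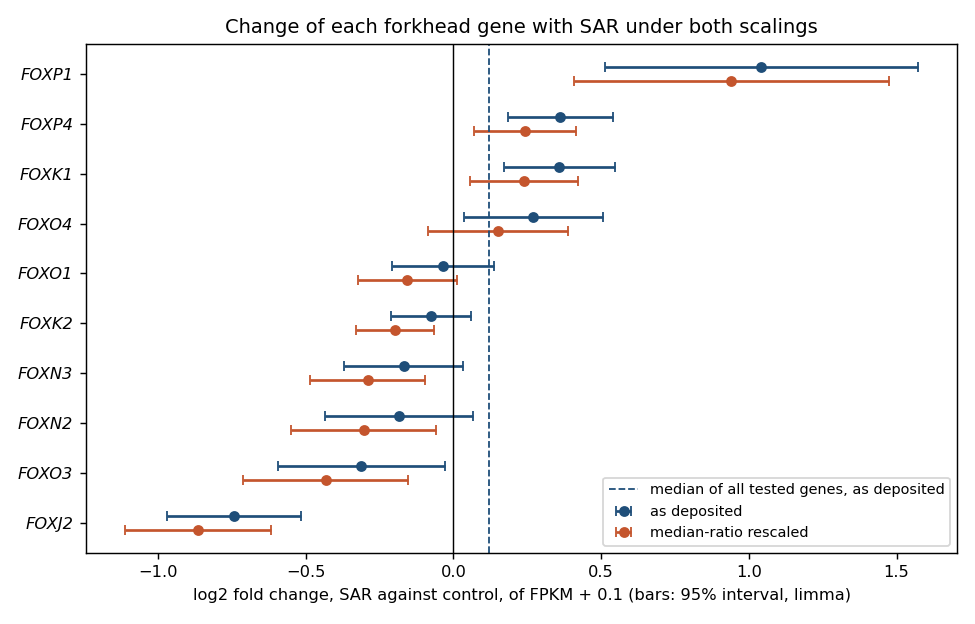
Log2 fold change of each gene, SAR against control, on the log2(FPKM + 0.1) scale (x axis), with its 95% interval from limma, as deposited (blue) and after median-ratio rescaling (orange). FOXP1 lies at 1.04 and 0.94 and FOXJ2 at -0.74 and -0.86, and the dashed line marks the median of all tested genes as deposited, 0.12.

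FOXO3 (ENSG00000118689, chr6:108559835-108684774, plus strand; this and the positions that follow are those of GENCODE 29 on GRCh38, where all 10 genes are protein-coding) had the highest level of the 3 FOXO genes in the control group. FOXO3 activates genes of cell death and stress defence. Its FPKM was 6.25, 6.05 and 5.75 in the control libraries and 4.52, 4.26 and 5.83 with SAR. SAR replicates 1 and 2 lay below every control library, while SAR replicate 3 lay within the control range. The log2 fold change was -0.31 (95% interval -0.60 to -0.03, adjusted p = 0.0842), from a mean of 6.02 ± 0.254 (SD, n = 3) to 4.87 ± 0.840. In separate fits the gene passed the test after median-ratio rescaling (log2 fold change -0.43, adjusted p = 0.0337) and after quantile normalization (-0.42, adjusted p = 0.039). It also passed without SAR replicate 3 (-0.45, adjusted p = 0.00812), and with voom on the recovered reads (adjusted p = 0.0338). Between 554 and 1134 reads stood behind each value, and the SAR libraries scattered 19.7 times as widely, in variance, as counting error alone would give.

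A processed pseudogene copy of FOXO3, FOXO3B (chr17:18670946-18672873), shares 99.1% of bases with it over 1928 aligned bases, so reads could be divided between the 2 genes. FOXO3B held 143 to 168 reads in control libraries, its mean FPKM was 1.16 ± 0.230 in the control group and 1.42 ± 0.132 with SAR, and it did not pass the test (log2 fold change 0.29, adjusted p = 0.208). With the reads of both genes added together, the mean scaled to library size was 53.4 RPM in the control group and 46.2 RPM with SAR, a log2 difference of -0.21, against -0.32 for FOXO3 on the same scale. The counted length of FOXO3B was 6240 bases, longer than the annotated 1928, and how reads were divided between both genes is not known, so the size of the FOXO3 difference is uncertain.

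FOXO4 (ENSG00000184481, chrX:71096197-71103535, plus strand), another nuclear effector of low insulin signaling, had FPKM of 4.03, 4.15 and 4.11 in the control libraries and 4.54, 4.67 and 5.77 with SAR. All 3 SAR libraries lay above the control libraries, with SAR replicate 3 highest. The difference did not pass the test (log2 fold change 0.27, 95% interval 0.04 to 0.51, adjusted p = 0.0744), and after rescaling it was 0.15 (adjusted p = 0.287) with overlap between the groups. FOXO1 (ENSG00000150907, chr13:40469953-40666597, minus strand) had FPKM of 4.99, 4.65 and 4.89 in the control libraries and 4.44, 5.05 and 4.68 with SAR. These ranges overlapped, and the log2 fold change was -0.04 (95% interval -0.21 to 0.14, adjusted p = 0.724). After rescaling it was -0.16 (adjusted p = 0.137), with the SAR libraries wholly below the control libraries, and without SAR replicate 1 it was 0.01 (adjusted p = 0.954). The spread of FOXO1 within each group was close to counting error, with variance ratios of 0.887 in control libraries and 2.03 with SAR. In the annotation 4.3% of the FOXO1 exon bases are shared with LINC00598 on the same strand.

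The 3 FOXO genes together summed to 15.0 ± 0.279 FPKM in the control group and 14.6 ± 1.49 with SAR, with overlapping ranges. Within that sum FOXO3 took 40.2% ± 1.09 in control libraries and 33.3% ± 2.67 with SAR. FOXO4 took 27.4% ± 0.857 and 34.2% ± 1.11. Reads of FOXO3B were left out of the sum and of the ratios below, so the uncertainty about the FOXO3 difference holds for them too. The FPKM ratio of FOXO3 to FOXO4 within a library, which no scaling between libraries can change before the pseudocount is added, was 1.55, 1.46 and 1.40 in the control libraries and 0.995, 0.912 and 1.01 with SAR. Every SAR library thus had a lower ratio than every control library, SAR replicate 3 included. The difference on the log2 scale was -0.58 ± 0.06 (SE), and an exact two-sided permutation test gave p = 0.1, the smallest that 3 against 3 libraries allow (0.15 adjusted over 6 pairs of genes). The ratio of FOXO1 to FOXO4 differed by -0.31 with no overlap (exact permutation p = 0.1, adjusted 0.15), and that of FOXO1 to FOXO3 by 0.28 with overlap (exact permutation p = 0.2, adjusted 0.24). FOXO6, the remaining FOXO gene, had 15 to 33 reads a library and a log2 fold change of 0.61 that did not pass the test (adjusted p = 0.166).

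FOXP1 (ENSG00000114861, chr3:70952817-71583993, minus strand), a repressor with parts in lymphocyte, heart and lung development, showed the largest rise of the 10 genes. Its FPKM was 0.330, 0.320 and 0.306 in the control libraries and 0.799, 0.788 and 0.703 with SAR. The SAR libraries lay far above the control range, and the groups were far apart relative to their spread (0.319 ± 0.0123 and 0.763 ± 0.0526, SD, n = 3). The ratio of the means was 2.39, and 2.20 after rescaling. The fitted log2 fold change was 1.04 (95% interval 0.51 to 1.57, adjusted p = 0.014), and 0.94 after rescaling (adjusted p = 0.022). These fitted values are compressed by the pseudocount of 0.1, and a fit with voom on the recovered reads gave 1.25 (adjusted p = 5.38e-06). As FOXP1 passed the filter only through its SAR values, the fit without a filter is given too, in which the log2 fold change was 1.04 (adjusted p = 0.0214).

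The low FPKM of FOXP1 came with 201 to 272 reads in control libraries and 450 to 465 with SAR, spread over 34819 counted exon bases, against 3790 to 13106 bases for the other 9 genes. The level per length is therefore set by the sum of all annotated exons rather than by 1 transcript. Of its exon bases 6.9% are shared with another gene on the same strand. The long noncoding RNA genes around FOXP1 held few reads: FOXP1-AS1 had 0 reads in each control library and 1, 5 and 1 with SAR, FOXP1-DT had 1, 1 and 0 and then 5, 3 and 3, and FOXP1-IT1 had 0, 0 and 1 and then 3, 1 and 2. All 3 were below the minimum for testing.

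FOXP1 has several start sites, and 6 of the 17 promoters that RefSeq lists for 9 of the 10 genes are its own (GRCh38.p14, 250 bases upstream of each start). A pair of them is shown, as the outermost start and an inner start differ in base composition and as the inner one alone, of all 17, carries the forkhead core motif GTAAACA. Sequences run 5′ to 3′ on the strand of the gene. Capitals mark each match on either strand of GTAAACA or of the GC box GGGCGG, and the outermost FOXP1 window holds neither.
FOXP1 outermost start, chr3:71583729-71583978, minus strand: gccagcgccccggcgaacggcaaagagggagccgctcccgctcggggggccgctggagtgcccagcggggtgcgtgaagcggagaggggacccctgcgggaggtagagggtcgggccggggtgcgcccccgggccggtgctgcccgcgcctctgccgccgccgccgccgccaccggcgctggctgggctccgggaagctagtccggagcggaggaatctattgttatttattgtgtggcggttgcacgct
FOXP1 inner start, chr3:71245078-71245327, minus strand: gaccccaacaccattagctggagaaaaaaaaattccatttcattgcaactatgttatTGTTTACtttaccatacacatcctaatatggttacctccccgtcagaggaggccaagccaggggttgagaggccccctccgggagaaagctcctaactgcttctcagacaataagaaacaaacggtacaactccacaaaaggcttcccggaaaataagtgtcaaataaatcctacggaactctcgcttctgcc
The outermost window has a GC content of 74.0% and the inner one 45.2%, where the median of all 34943 RefSeq promoters was 58.0%. GTAAACA was present in 2.98% of all promoters and in 1 of the 17. The TEAD motif GGAATG was present in 11.9% of all promoters and in 1 of the 17, also an inner start of FOXP1, and the E-box CACGTG in 6.32% and in 2 of the 17, those of FOXK1 and FOXP4. The gene-level counts do not show which start was in use, and a match is no evidence of binding.

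FOXP4 (ENSG00000137166, chr6:41546426-41602384, plus strand), a partner of FOXP1 in lung development, also rose. Its FPKM was 3.24, 3.11 and 3.13 in the control libraries and 3.79, 4.22 and 4.28 with SAR, with no overlap. The ratio of means was 1.30 and the log2 fold change 0.36 (95% interval 0.19 to 0.54, adjusted p = 0.0122). After rescaling it was 0.24 (adjusted p = 0.0467), and without control replicate 3 it was 0.36 (adjusted p = 0.0511). FOXP4-AS1, whose annotation reaches the start of FOXP4 on the opposite strand, had 4 to 14 reads a library.

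FOXP1 and FOXP4 summed to 3.48 ± 0.0765 FPKM in the control group and 4.86 ± 0.238 with SAR, 1.40 times the control level, and the share of FOXP1 in that sum was 9.16% ± 0.226 and 15.8% ± 1.66. The ratio of FOXP1 to FOXP4 was 0.102, 0.103 and 0.0977 in the control libraries and 0.211, 0.187 and 0.164 with SAR. Every SAR library thus had a higher ratio than every control library. With the pseudocount of 0.1 the difference was 0.68 ± 0.10 (SE) on the log2 scale (exact permutation p = 0.1, adjusted 0.15). Its size depended on the pseudocount, at 0.13 with a pseudocount of 1 and 0.86 with 0.01. FOXP2 and FOXP3 were below the minimum for testing, with 126 to 169 reads in control libraries for FOXP2.

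FOXK1 (ENSG00000164916, chr7:4682309-4771443, plus strand), a SIN3A-binding repressor of autophagy genes that also raises glycolytic genes, rose as deposited. Its FPKM was 4.21, 3.96 and 3.98 in the control libraries and 4.91, 5.05 and 5.74 with SAR, with no overlap and with SAR replicate 3 highest. The log2 fold change was 0.36 (95% interval 0.17 to 0.55, adjusted p = 0.0153). The call depended on the scaling and on single libraries. After rescaling the log2 fold change was 0.24 (adjusted p = 0.0562), without control replicate 2 it was 0.34 (adjusted p = 0.052), and without control replicate 3 it was 0.35 (adjusted p = 0.06).

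FOXK2 (ENSG00000141568, chr17:82519713-82644662, plus strand), its close relative, had FPKM of 6.29, 5.92 and 6.09 in the control libraries and 5.84, 5.70 and 5.78 with SAR. The SAR libraries lay just below the control libraries, but the difference did not pass the test as deposited (log2 fold change -0.08, 95% interval -0.21 to 0.06, adjusted p = 0.325). After rescaling FOXK2 was called lower (-0.20, adjusted p = 0.0369). The annotation places 14.1% of the FOXK2 exon bases opposite to exons of WDR45B and other genes, and without a stated strand setting the reads there cannot be assigned to one of them.

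The ratio of FOXK1 to FOXK2 was 0.670, 0.670 and 0.654 in the control libraries, a narrow range, and 0.842, 0.886 and 0.992 with SAR. The difference was 0.44 ± 0.07 (SE) on the log2 scale, with no overlap (exact permutation p = 0.1, adjusted 0.15). The share of FOXK1 in the sum of both went from 39.9% ± 0.320 to 47.5% ± 2.10, while the sum itself was 10.2 ± 0.316 and 11.0 ± 0.445 FPKM.

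**Figure D3:**
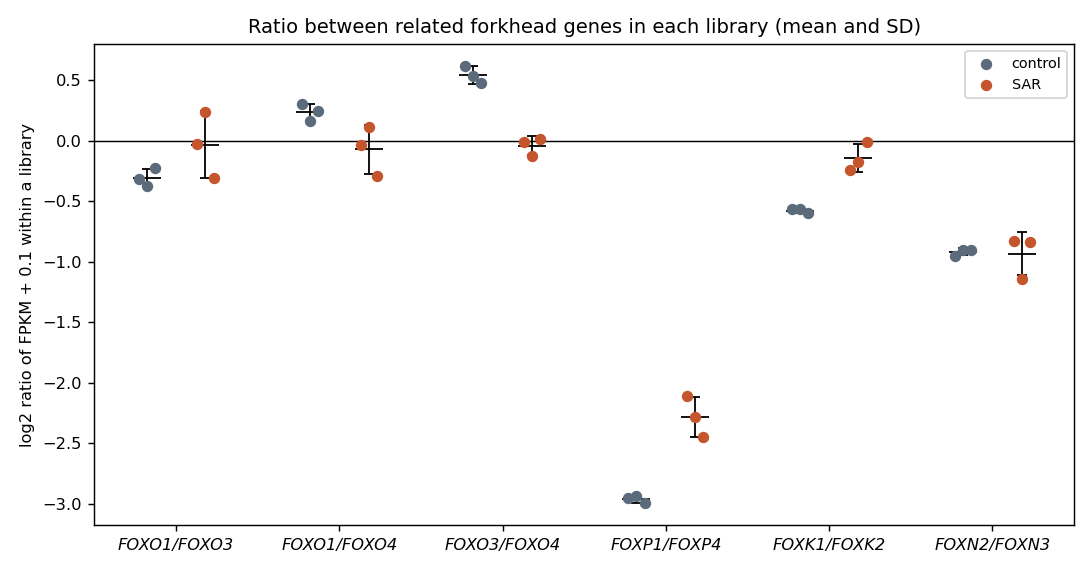
Log2 ratio of FPKM + 0.1 between related forkhead genes within each library (y axis) for 6 pairs (x axis), with control libraries in grey, SAR libraries in orange, and the mean and SD of each group as lines. SAR libraries lie apart from control libraries for FOXO1/FOXO4, FOXO3/FOXO4, FOXP1/FOXP4 and FOXK1/FOXK2, with mean differences of -0.31, -0.58, 0.68 and 0.44, and overlap them for FOXO1/FOXO3 and FOXN2/FOXN3.

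FOXN3 (ENSG00000053254, chr14:89124871-89619149, minus strand), a repressor known from the DNA damage checkpoint and from liver glucose metabolism, had the highest mean level of the 10 genes in both groups. Its FPKM was 7.25, 6.83 and 7.16 in the control libraries and 5.60, 6.50 and 6.82 with SAR. The groups did not overlap, but SAR replicate 3 lay only just below the control range. The log2 fold change of -0.17 did not pass the test (95% interval -0.37 to 0.03, adjusted p = 0.162), and after rescaling it was -0.29 (adjusted p = 0.0382). Exons of other genes overlap 2.6% of its exon bases on the same strand and 7.5% on the opposite strand, and FOXN3-AS1 had 9 to 17 reads a library.

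FOXN2 (ENSG00000170802, chr2:48314637-48379294, plus strand), a close relative of FOXN3, had FPKM of 3.71, 3.61 and 3.79 in the control libraries and 3.12, 2.90 and 3.78 with SAR. As for FOXO3, SAR replicates 1 and 2 lay below the control libraries and SAR replicate 3 within their range. The log2 fold change was -0.18 (95% interval -0.43 to 0.07, adjusted p = 0.213), and -0.29 (adjusted p = 0.0295) without SAR replicate 3. After rescaling it was -0.30 (adjusted p = 0.0668), with the SAR libraries wholly below the control libraries. The ratio of FOXN2 to FOXN3 was 0.511 to 0.529 in control libraries and 0.445 to 0.557 with SAR, and differed by -0.02 ± 0.10 (SE) on the log2 scale (exact permutation p = 1). The sum of both genes was 10.8 ± 0.295 FPKM in the control group and 9.57 ± 0.951 with SAR, with overlapping ranges. FOXN1 and FOXN4 were below the minimum for testing.

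FOXJ2 (ENSG00000065970, chr12:8032703-8055503, plus strand), an activator that recognises more than one kind of DNA site, was the only gene of the 10 called lower as deposited. Its FPKM was 5.99, 7.60 and 6.59 in the control libraries and 3.95, 3.80 and 4.12 with SAR. All SAR libraries lay well below the lowest control library. The mean went from 6.72 ± 0.812 (SD, n = 3) to 3.96 ± 0.157, a ratio of 0.589, with 783 to 1168 reads in control libraries and 406 to 477 with SAR. The log2 fold change was -0.74 (95% interval -0.97 to -0.52, adjusted p = 0.00257), and -0.86 after rescaling (adjusted p = 0.00222). The spread lay in the control group, at 14.3 times the counting variance, against 0.695 times with SAR, and without control replicate 2, the highest, the log2 fold change was -0.65 (adjusted p = 0.00732). Of all tested genes, 4.52% had a log2 fold change at or below that of FOXJ2.

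The promoter window of FOXJ2 is printed because the gene fell most, and unlike FOXP1 it has a single start in the table used. With a GC content of 81.2% it is among the GC-rich windows of the 10 genes, and it holds the GC box GGGCGG, shown in capitals as above. This motif was present in 42.5% of all RefSeq promoters and in 10 of the 17 promoters of these genes.
FOXJ2, chr12:8032466-8032715, plus strand: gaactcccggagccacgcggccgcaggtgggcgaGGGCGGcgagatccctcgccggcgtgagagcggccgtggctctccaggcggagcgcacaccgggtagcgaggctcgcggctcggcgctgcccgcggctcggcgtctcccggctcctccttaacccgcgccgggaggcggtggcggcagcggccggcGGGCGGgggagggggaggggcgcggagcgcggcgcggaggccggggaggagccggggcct

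FOXJ3, the closest relative of FOXJ2, was not among the 10 genes and was set beside it after its values were seen. Its FPKM was 13.2, 13.5 and 13.8 in the control libraries and 20.2, 19.5 and 23.9 with SAR, and it rose (log2 fold change 0.64 ± 0.08 (SE), adjusted p = 0.00259). The ratio of FOXJ2 to FOXJ3 was 0.455 to 0.562 in control libraries and 0.173 to 0.195 with SAR. In this pair one gene fell and the other rose, under both scalings (FOXJ3 after rescaling 0.52, adjusted p = 0.00586).

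The order of the 10 genes by mean FPKM, a value per length, changed between the groups. In the control group it ran FOXN3, FOXJ2, FOXK2, FOXO3, FOXO1, FOXO4, FOXK1, FOXN2, FOXP4 and FOXP1. The ranges of neighbours overlapped among the first 4 of these and between FOXO4 and FOXK1, and the other neighbours did not overlap. With SAR the order ran FOXN3, FOXK2, FOXK1, FOXO4, FOXO3, FOXO1, FOXP4, FOXJ2, FOXN2 and FOXP1, with neighbours overlapping from FOXN3 down to FOXO1 and between FOXP4 and FOXJ2. FOXJ2 thus moved from rank 2 to rank 8 and FOXK1 from rank 7 to rank 3, while FOXP1 was lowest in both groups. The sum of all 10 genes was 45.8 to 46.3 FPKM in control libraries and 41.5 to 47.5 with SAR.

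The 56 genes listed as regulators of FOXO (insulin receptors, PI3K and AKT, mTOR, YWHA adaptors, deacetylases and other modifying enzymes) moved in both directions. Of the 53 that were tested, 11 rose and 9 fell, or 20.8% and 17.0% against 23.7% and 9.55% of all tested genes, and their median log2 fold change was -0.03 against 0.12. PIK3CB, a catalytic PI3K subunit, fell from a mean FPKM of 19.5 ± 1.65 to 10.2 ± 0.613 (log2 fold change -0.92, adjusted p = 0.000767). IGF1R, a receptor upstream of PI3K, fell from 17.5 to 12.97 (-0.43, adjusted p = 0.00385), and CDK1, a mitotic kinase that can phosphorylate FOXO1, fell from 52.7 to 40.4 (-0.38, adjusted p = 0.00239). MLST8, a subunit of the mTOR complexes, rose by 0.38, the deacetylase SIRT3 by 0.41 and the kinase NLK by 0.45 (adjusted p of 0.00324, 0.00416 and 0.00528). After rescaling 3 of the 53 were called higher and 17 lower (5.66% and 32.1%), against 13.8% and 15.5% of all tested genes. Their median log2 fold change was then -0.15, against 0.00 for all tested genes. The 6 genes named kept their calls after rescaling. Without control replicate 3 the counts as deposited were 3 higher and 4 lower, without SAR replicate 2 they were 5 and 5, and without control replicate 2 the count of higher genes was 4.

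Of 59 listed targets of FOXO, 57 were matched in the table and 45 tested, of which 13 rose and 8 fell (28.9% and 17.8%, against 23.7% and 9.55% of all tested genes), with a median log2 fold change of 0.11. Among those that rose, SESN3, a sestrin that dampens mTOR signaling, went from 6.79 ± 0.150 to 13.03 ± 1.94 FPKM (log2 fold change 0.92, adjusted p = 0.00175). The repressor BCL6 went from 0.948 to 2.42 FPKM (1.28, adjusted p = 0.00304), the death activator BCL2L11 from 2.42 to 4.28 (0.80, adjusted p = 0.00306), and the selenium carrier SELENOP from 4.20 to 6.88 (0.70, adjusted p = 0.00375). Among those that fell, the zinc finger factor KLF6 went from 62.7 to 31.1 FPKM (-1.02, adjusted p = 0.00126) and GADD45A, a DNA damage response gene, from 43.1 to 28.3 (-0.60, adjusted p = 0.00244). After rescaling 7 were called higher and 11 lower (15.6% and 24.4%, against 13.8% and 15.5%). Without control replicate 3 the count of higher genes was 7, and without SAR replicate 2 the counts were 8 higher and 5 lower. The 6 genes named kept their calls after rescaling.

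Of 44 listed corepressor and partner genes of the FOXK, FOXP and FOXN proteins, 41 were tested, of which 8 rose and 0 fell in the limma test as deposited. The 19.5% that rose was below the 23.7% of all tested genes, and 9.55% of all tested genes fell. With voom on the recovered reads 9 of 41 rose (against 27.5% of all genes in that fit) and 0 fell (against 11.1%). Their median log2 fold change was 0.06. CTBP1 and CTBP2, corepressors bound by FOXP proteins, rose by 0.41 (adjusted p = 0.00448) and 0.32 (adjusted p = 0.0315). HDAC1 (0.23), MBD3 (0.57), MTA3 (0.31) and RBBP7 (0.18), subunits of the NuRD deacetylase complex, also rose, with adjusted p between 0.014 and 0.0233. These 6 genes were named by their small adjusted p, and NuRD as a whole was not tested. Under rescaling 2 genes were called higher and 2 lower (4.88% each, against 13.8% and 15.5%), with CTBP1 and MBD3 (adjusted p of 0.0144 and 0.0341) among the 6 named still called higher. The count of higher genes as deposited was 3, 2, 4 and 2 without control replicate 2, control replicate 3, SAR replicate 1 and SAR replicate 2.

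**Figure D4:**
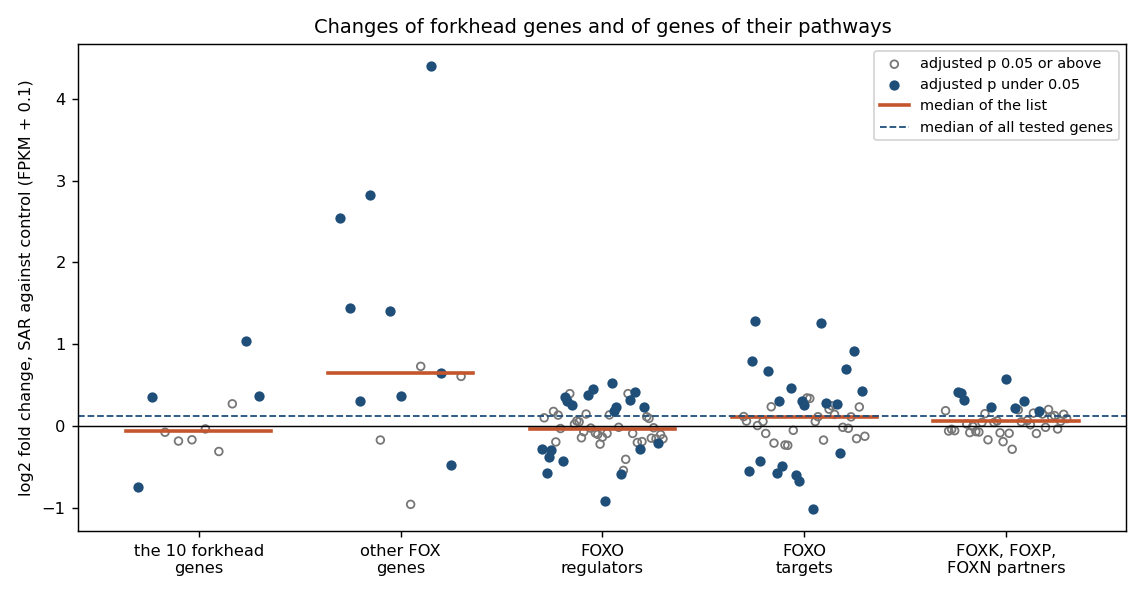
Log2 fold changes, SAR against control, on the log2(FPKM + 0.1) scale (y axis) of the tested genes in 5 lists (x axis), with filled points for an adjusted p under 0.05 and open points for others. Orange lines give each list's median (-0.06 for the 10 forkhead genes, 0.64 for other FOX genes, -0.03, 0.11 and 0.06 for FOXO regulators, FOXO targets and partners) and the dashed line the median of all tested genes, 0.12.

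Outside these 10 genes the table lists 35 further FOX genes, of which 13 were tested, and 8 of those rose and 1 fell (61.5% and 7.69%, against 23.7% and 9.55% of all tested genes). Their median log2 fold change was 0.64, against -0.06 for the 10 genes, and 5 of the 13 were upregulated past a log2 fold change of 1, against 1 of 10 and 3.41% of all tested genes. Of the 13, 5 (FOXO6, FOXI3, FOXD3, FOXB1 and FOXJ1) reached the minimum of 0.5 FPKM only through their values with SAR, where they were higher. FOXD3, FOXB1 and FOXJ1 were among the 5 upregulated, so the filter favoured rises in these counts and the median. The counts and the median are given as a description. With rescaling, 6 of the 13 were called higher and 1 lower (46.2% and 7.69%, against 13.8% and 15.5% of all tested genes). The summed FPKM of the 35 genes was 84.1 to 86.7 in control libraries and 155 to 167 with SAR, with no overlap. FOXA2, from a mean FPKM of 23.6 to 64.0, gave the largest part of that difference, and FOXI1, FOXM1 and FOXC1 had lower means with SAR. The sum therefore does not describe the 35 genes as a set. The sum of the 10 genes overlapped between the groups.

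Over the 6 libraries, the tested genes whose log2 levels followed FOXP1 most closely were led by CACNG8 and SMIM10L2A (Pearson r of 0.999 for each), and those following FOXJ2 by LIFR, PDE4DIP and TMEM87B (r of 0.998, 0.997 and 0.997). Such values were common, since 1462 of 14872 genes had an r of at least 0.95 with FOXP1 and 597 with FOXJ2. The 6 points fall into their 2 groups and share their libraries, so these values describe a difference between the groups more than a relation within them.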

How the data were processed

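Poly(A)-selected RNA of 6 libraries was sequenced as paired-end reads. The authors deposited FPKM per gene for 40396 Ensembl IDs, 1 column per library, without pooling or scaling beyond each library's total. The submitters' processing notes name HISAT2, featureCounts, Subread, DESeq2 and GRCh38.p13, and the annotation release and strand setting are not given in the sources used here. Genes were tested with limma 3.58.1 in R 4.3.3 (lmFit, eBayes with intensity trend, two-sided, Benjamini-Hochberg) on log2(FPKM + 0.1), a scale that understates changes of low genes, where the mean over all libraries reached 0.5 FPKM. Whole reads, to within 0.01 reads, were recovered from the FPKM steps for 33997 of 33998 genes with a value in 2 or more libraries. Of these, 99.8% gave a length close to a whole number and 53.7% the exon length of GENCODE 29. For 572 genes a common factor was restored from that length (2 for FOXO3). Recovered reads gave depth and a voom fit. Ratios between related genes were compared with exact permutation tests over libraries.

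The genes and lists were chosen with earlier results of these data known. Genes were named by rule: the 10 genes, their close relatives and genes named after them, up to 6 genes of each list with the smallest adjusted p and no overlap, the 3 genes most correlated with the highest and lowest gene (1 of the 6 is not reported here), and the 3 most abundant markers of each list. FOXN2 had no matched RefSeq promoter.

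Alternatives were quantile normalization, rescaling by median ratios, a pseudocount of 0.01 or 1, a filter at 1 FPKM or none, no trend, a replicate block, each library left out in turn, and voom, which was added after seeing the data. The tests were run on simulated data first, with 200 of 16155 genes changed and the same dispersion for every gene. These settings are simpler than the real data, so the run checked the code and not the error rate here. Symbols matched 30235 IDs. Python 3.11.15 with pandas 2.3.3, numpy 2.4.6, scipy 1.17.1 and matplotlib 3.10.9 was used. Protein, flow cytometry, qPCR and docking data were not analysed here.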

Additional observations from a re-analysis of the deposited data

How the results depend on the processing

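FOXJ2 was called lower under all 15 alternatives (log2 fold change -0.86 to -0.63) and FOXP1 higher under the 12 that tested it (0.42 to 1.25). All of these 12 except the limma fit without a filter (1.04, adjusted p = 0.0214) admitted FOXP1 only through its values with SAR. The number of calls for FOXP1 is therefore no added support. FOXP1 fell under the minimum with 1 FPKM required and without SAR replicate 1 or 2. FOXO1 and FOXO4 passed under none of 15, and the other 6 genes changed their call under at least 1. The number of the 10 genes upregulated was 0 with a pseudocount of 1, with a minimum of 1 FPKM, and after median-ratio rescaling or quantile normalization. The number lower was 4 after median-ratio rescaling, 3 after quantile normalization and 2 with voom, and the median log2 fold change -0.18 and -0.16 after the first 2. Under quantile normalization FOXP4 lost its call (0.23, adjusted p = 0.053).

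Of FOXO regulators 3 were higher and 17 lower after median-ratio rescaling, and 5 and 18 after quantile normalization. Of FOXO targets 7 and 8 were higher. Of partner genes 2 were higher and 2 lower after median-ratio rescaling, 5 and 2 after quantile normalization, with 5 higher without a filter and 4 without a trend. Of other FOX genes 2 were lower without a filter and 2 with voom. The FOXN2/FOXN3 difference turned to 0.0028 with a pseudocount of 1. The cause of these shifts was not tested.

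With each library left out, the 10 genes had 1 to 3 higher (1 without control replicate 3), 1 to 3 lower (3 without SAR replicate 3) and 0 to 1 upregulated, regulators 3 to 11 higher and 4 to 9 lower, targets 7 to 11 and 5 to 8, partners 2 to 7 and 0 to 1 (1 without SAR replicate 3), and other FOX genes 6 to 7 and 0 to 3 (0 without control replicate 2 or 3, 3 without SAR replicate 1, 2 without SAR replicate 2 or 3). The difference of FOXN2/FOXN3 ranged from -0.069 to 0.088, positive without SAR replicate 2, and the log2 fold change of FOXO1 from -0.085 to 0.0070, positive without SAR replicate 1.

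Whether the replicate numbers pair the samples is not known. Deviations of same-numbered libraries from their group means correlated with r of 0.073, 0.0029 and 0.025, against -0.083 to 0.067 for the other pairings. With a replicate block 3 of the 10 genes were higher, 1 lower and 1 upregulated, and no gene of the 10 changed its call.

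At most 33 reads a library stood behind FOXO6 and the noncoding RNA genes near FOXP1, FOXP4 and FOXN3, which limits the precision of their values.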
